A study of Mus musculus with 20 samples.

Results

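The late stretch of a stimulation time course, 12, 24 and 48 h, was set against its middle stretch, 2, 3 and 6 h, in the stimulated libraries alone: 6 of the 20 libraries of the series, 3 a side. The members were taken by treatment and time label, not by any measured value. The stimulated culture received LPS (lipopolysaccharide, sensed through Toll-like receptor 4), IL4 (interleukin 4) and TGFb (transforming growth factor beta). Its libraries were taken at 12, 24 and 48 h and at 2, 3 and 6 h. The untreated culture received none of these and gave libraries at the same times. Those libraries are used here only to see whether a change also occurred without the cocktail. The labels give the tissue as spleen and give no strain, age, sex or dose. Each arm is 1 animal per the design text, with 1 library at each time, so treatment and animal cannot be told apart, and the 3 times of a stretch stand where replicates would be. Errors and p-values measure the spread between times and not between animals.

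LPS and IL-4 drive B cells into the cell cycle and make them ready to switch antibody class, a recombination of the antibody heavy chain gene, and TGF-beta steers the choice of the new class. Over the first hours such cells express early transcription factors and signalling genes. Later they depend on nutrient uptake, glycolysis and lipid synthesis, and part of them moves toward antibody secretion.

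Each of the 6 libraries held between 45900045 and 53027179 counts. The floor of detection, taken as 3 counts, corresponded to 0.0566 to 0.0654 CPM on unscaled library totals. Printed CPM of genes are read counts divided by the TMM-scaled library size, as a rate common to all libraries. B-lineage markers were abundant throughout, with 13 of 14 tested and summed levels of 2196 to 2613 CPM late and 2185 to 2729 CPM in the middle. Of 8 neutrophil, 8 erythroid, 6 platelet and 6 mast cell or basophil markers, none reached 1 CPM in any of the 6 libraries, and 7 of 11 T cell and 7 of 8 NK cell markers stayed under it too. T cell markers still summed to 46.5 to 72.6 CPM late and 70.4 to 87.9 CPM in the middle, dendritic cell markers to 44.0 to 75.4 and 61.3 to 75.6 CPM, and macrophage markers to more, as given further on. Cycling genes were high before any stimulation, with Mki67, a marker of dividing cells, at 818 CPM in the stimulated and 816 CPM in the untreated library at 0 h. Classical MHC genes such as H2-Aa and H2-K1 were listed at no more than 5 counts in any of the 20 libraries, although B cells carry these molecules, and they were not interpreted. The labels do not say how the cells were obtained from the spleen, so values of B cell, mitosis and class switch genes cannot be tied to a resting splenic B cell as the starting point. In these bulk libraries, fewer cells of a type and less RNA per cell cannot be told apart.

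Only 4 genes passed the threshold of an adjusted p of 0.05 in the comparison of late with middle stimulated libraries (edgeR quasi-likelihood test, Benjamini-Hochberg adjustment over 11224 genes). One rose, which is 0.00891% of the genes tested, and 3 fell, which is 0.0267%. Gstt3, a glutathione transferase, had 56.5, 83.5 and 81.3 CPM at 12, 24 and 48 h, against 15.6, 13.7 and 17.3 CPM at 2, 3 and 6 h. Its late levels lay far above all 3 middle ones and the change was 4.70-fold (log2 2.23 ± 0.19, SE, adjusted p = 0.0209). In the untreated libraries it had 27.6, 37.3 and 26.6 CPM late and 13.8, 13.0 and 16.9 CPM in the middle, so the same direction with a smaller step.

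The 3 genes that fell were 2 transcription factor genes of the basic leucine zipper family and a cytoskeletal gene. Map1a, which encodes a microtubule-associated protein best known from neurons, had 13.2, 14.8 and 20.8 CPM at 12, 24 and 48 h, against 126, 162 and 80.9 CPM at 2, 3 and 6 h (log2 change -2.93 ± 0.29, adjusted p = 0.0295). Batf3, a factor known for its role in dendritic cell development, had 8.62, 7.12 and 9.22 CPM late, against 29.2, 37.6 and 29.7 CPM in the middle (log2 change -1.96 ± 0.18, adjusted p = 0.0209). Atf5, a stress-responsive factor downstream of ATF4, had 60.3, 50.9 and 53.3 CPM late, against 181, 171 and 140 CPM in the middle (log2 change -1.60 ± 0.14, adjusted p = 0.0209). In each of the 3 the late libraries lay together and below every middle one. All 3 also lay lower late in untreated libraries. Map1a had 37.4, 58.6 and 86.8 CPM there against 224, 258 and 146 CPM, Batf3 15.2, 19.6 and 21.2 CPM against 27.7, 38.8 and 26.6 CPM, and Atf5 62.6, 38.8 and 95.6 CPM against 153, 154 and 115 CPM.

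**Figure D1:**
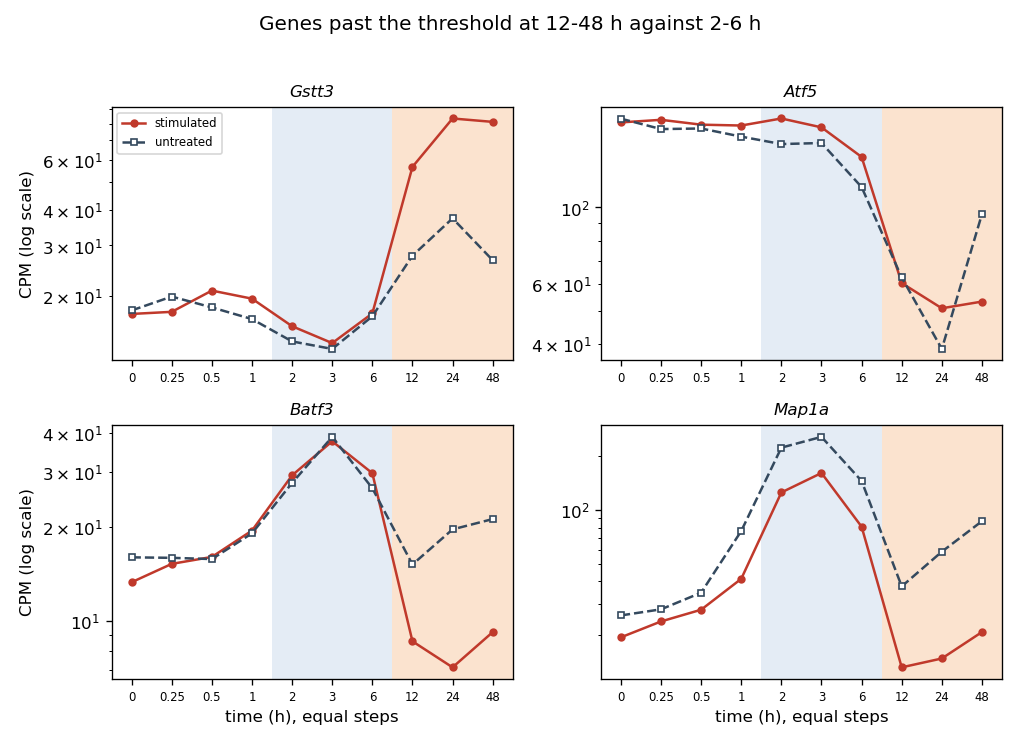
CPM (log axis) of Gstt3, Atf5, Batf3 and Map1a at the 10 times (h, drawn at equal steps), 1 library per point, stimulated as filled circles and untreated as open squares. The blue band marks 2 to 6 h and the orange band 12 to 48 h; in stimulated libraries the step falls between 6 and 12 h, as for Map1a with 13.2 CPM at 12 h against 80.9 CPM at 6 h.

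The number of calls moved with the libraries used, and also with the method and the filter on the same 6 libraries. DESeq2 called 673 genes higher and 670 lower, and edgeR with no filter on low counts 541 and 543. An unadjusted p under 0.05 was reached by 2693 genes, 1365 of them higher and 1328 lower late. The 6 h library lay nearer the late ones than to 2 and 3 h on the first principal component of the 6 libraries, which held 60.2% of the variance, with scores of 19.7, 23.0 and 17.9 at 12, 24 and 48 h and of -36.4, -30.3 and 6.1 at 2, 3 and 6 h. Without 6 h, 1225 genes were higher and 1190 lower, and without any 1 of 2, 3, 24 or 48 h no gene passed. A fit of 8 groups over all 20 libraries borrows the spread from the other times. It called 1374 of the 11224 genes higher (12.2%) and 1150 lower (10.2%). The borrowed spread includes the first hour and the untreated arm. Stimulated first-hour libraries can lie closer together than later ones. Cd22 had 460, 500 and 496 CPM at 0.25, 0.5 and 1 h, against 367, 247 and 90.9 CPM at 2, 3 and 6 h. For such genes the p-values of the 8-group fit can be too small for the late against middle change. In 1716 genes (15.3%) all 3 late libraries lay above all 3 middle ones, and in 1457 (13%) all lay below. The middle libraries were all in lane 4, as was 48 h, while 12 and 24 h were in lane 2. With lane as a term no gene passed, and within lane 4, where 48 h stands alone against 2, 3 and 6 h, none did either. With lane as a term and within lane 4 the log2 changes were 2.38 and 2.39 for Gstt3, -1.63 and -1.62 for Atf5, -1.80 and -1.79 for Batf3 and -2.57 and -2.56 for Map1a, with adjusted p from 0.0698 to 0.185 (edgeR). Below, a gene said to pass in the 8-group fit is given with that fit's p, and the 6-library test did not call it.

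Taken one by one, the late libraries departed from the middle in different ways. Each library was compared with the mean of 2, 3 and 6 h on the scale of log2(CPM + 0.5), with no test, over 9464 genes with a mean of at least 5 CPM. At 12 h, 129 genes (1.36%) lay over 2-fold above and 204 (2.16%) over 2-fold below. At 24 h the counts were 208 above (2.2%) and 230 below (2.43%), and at 48 h they were 372 above (3.93%) and 170 below (1.8%). The balance therefore differed, with more genes below than above at 12 h and more above than below at 48 h. Only 64 genes lay over 2-fold above at all 3 late times and 65 over 2-fold below. Between neighbouring late times, 39 genes lay more than 2-fold higher at 24 h than at 12 h and 10 as far below. From 24 to 48 h, 192 lay higher and 32 below by that margin. In both arms the steps from 6 to 12 h and from 24 to 48 h also changed lane. Lane and time cannot be told apart in these steps, here and in the lists that follow.

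At 12 h the 4 genes furthest above the other 5 libraries were Slc39a10, Etohi1, Srrt and the mitochondrial transfer RNA gene TrnL2. Slc39a10, a zinc importer, had 158, 103 and 95.8 CPM at 12, 24 and 48 h, against 92.2, 70.7 and 108 CPM at 2, 3 and 6 h. Srrt, which works in nuclear RNA processing with the cap-binding complex, had 594, 428 and 250 CPM, against 271, 290 and 417 CPM. Both showed a peak at 12 h that was gone by 48 h, and untreated libraries showed it too, with 141, 97.6 and 79.6 CPM for Slc39a10 and 613, 458 and 288 CPM for Srrt at the late times. The 4 furthest below at 12 h were Trib3, Mxra8, Insig1 and Pfn2, with log2 differences of -2.24, -1.96, -1.13 and -1.39 from the middle mean.

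At 24 h the genes furthest above were Vcam1, Il12rb2, Aacs and Rn18s-rs5. Vcam1, an adhesion molecule for lymphocytes, had 40.4, 66.9 and 35.0 CPM at 12, 24 and 48 h, against 1.06, 2.79 and 29.5 CPM at 2, 3 and 6 h. Its largest fold step thus lay between 3 and 6 h, and in untreated libraries it never passed 0.624 CPM from 2 h on. Il12rb2, a subunit of the interleukin 12 receptor, had 9.98, 18.6 and 11.3 CPM, against 9.35, 7.20 and 6.93 CPM, and untreated libraries had a like peak of 14.6 CPM at 24 h. Rn18s-rs5 is a ribosomal RNA related sequence whose reads can come from many copies, so its 695, 1154 and 747 CPM, against 408, 464 and 382 CPM, are uncertain as the value of 1 gene.

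The 4 genes furthest below at 24 h were Mt2, Cox6a2, Tnnt3 and Pycr1. Mt2, a metal-binding metallothionein, had 8.30, 1.92 and 17.5 CPM at 12, 24 and 48 h, against 19.5, 30.9 and 30.8 CPM at 2, 3 and 6 h. Cox6a2 and Tnnt3, known from striated muscle as a cytochrome oxidase subunit and a troponin, had 2.72 and 1.87 CPM at 24 h, with 10.8 and 7.48 CPM at 48 h. All 4 were lowest at 24 h in the stimulated libraries and also in the untreated ones, where Mt2 had 2.40 CPM and Pycr1 11.4 CPM.

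The library at 48 h held the most separate genes. Fcer2a, which encodes CD23, the low-affinity IgE receptor and a classical IL-4 induced gene of B cells, had 7.48, 25.6 and 156 CPM at 12, 24 and 48 h, against 2.38, 3.32 and 5.53 CPM at 2, 3 and 6 h. It lay above the middle at every late time, by 0.98, 2.69 and 5.27 on the log2(CPM + 0.5) scale, and passed in the 8-group fit (log2 change 4.08 ± 0.77, adjusted p = 0.00273). Tnfrsf4, which encodes the costimulatory receptor OX40, had 4.26, 10.5 and 63.0 CPM, against 3.73, 3.66 and 4.29 CPM. Neither moved far in untreated libraries, where Fcer2a had 2.52 CPM and Tnfrsf4 2.28 CPM at 48 h. The other 2 of these genes were Emr1 and Tnfsf15. Emr1, which encodes the macrophage marker F4/80, had 2.48, 5.17 and 36.1 CPM late, against 6.64, 4.76 and 2.84 CPM. Tnfsf15, a TNF family cytokine, had 41.4, 27.1 and 176 CPM, against 30.4, 29.3 and 37.5 CPM.

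The genes furthest below at 48 h were Pdcd1, Rgs16, Efnb1 and Slfn2. Pdcd1, which encodes the inhibitory receptor PD-1, had 53.4, 52.9 and 7.95 CPM at 12, 24 and 48 h, against 34.7, 34.3 and 31.1 CPM at 2, 3 and 6 h. Its level was thus higher than the middle at 12 and 24 h and lower at 48 h, and untreated libraries went the same way with 59.3, 96.5 and 14.5 CPM. Rgs16, a brake on G protein signalling, had 6.74, 2.21 and 0.319 CPM, against 10.1, 10.3 and 2.66 CPM. Slfn2, a gene needed for lymphocyte quiescence in mice, had 65.7, 62.8 and 23.9 CPM, against 280, 196 and 83.0 CPM.

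**Figure D2:**
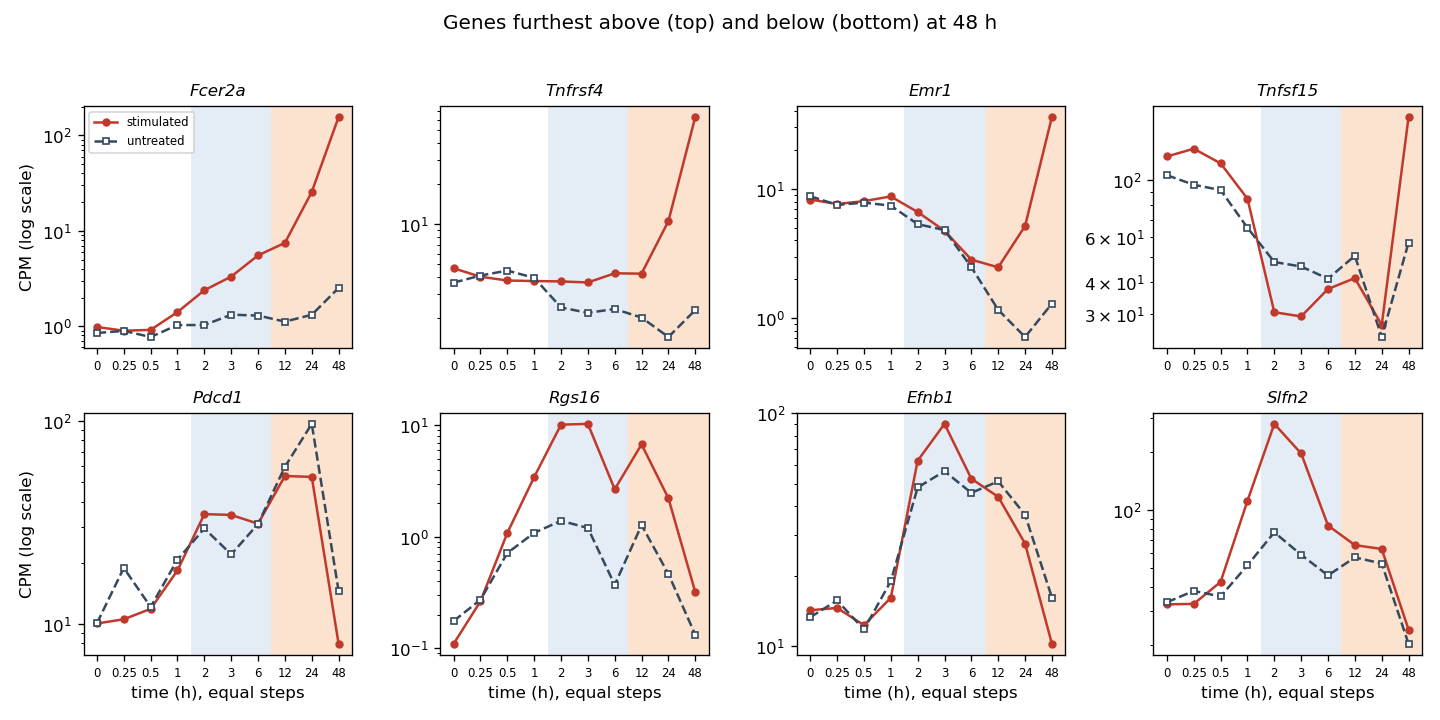
CPM (log axis) over the 10 times (h, drawn at equal steps) of the 4 genes furthest above (top) and the 4 furthest below (bottom) the other 5 stimulated libraries at 48 h, stimulated filled and untreated open, 1 library per point. Fcer2a reached 156 CPM in the stimulated 48 h library and 2.52 CPM in the untreated one, whereas Pdcd1 was low at 48 h in both, at 7.95 and 14.5 CPM.

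Genes of glycolysis lay higher late. Of 21 tested, all 3 late libraries lay above all 3 middle ones in 13 and below in none, beside 15.3% and 13% of all genes, and 14 passed as higher in the 8-group fit, beside 12.2%. The median difference of the list was 0.32, 0.76 and 0.86 at 12, 24 and 48 h (log2(CPM + 0.5) scale), beside 0.026, 0.027 and 0.002 for all genes tested. Pfkl, a subunit of the committing enzyme phosphofructokinase, had 248, 424 and 377 CPM, against 105, 124 and 174 CPM (adjusted p = 0.000441 in the 8-group fit). Ldha, which makes lactate, had 1546, 2486 and 1895 CPM, against 756, 893 and 1119 CPM. Slc16a3, a lactate exporter, had 4.09, 12.7 and 18.9 CPM, against 1.51, 1.88 and 1.95 CPM. All 3 were higher at each later time from 2 h up to 24 h, and Slc16a3 also at 48 h. The list also lay higher late in untreated libraries, with medians of 0.23, 0.39 and 0.47.

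The hypoxia response list, targets of HIF factors, lay highest at 48 h. Its median difference was 0.11, 0.27 and 0.95 at 12, 24 and 48 h, and 10 of 24 genes passed as higher and 1 as lower in the 8-group fit, beside 12.2% and 10.2% of all genes. Bnip3, a mitophagy receptor, had 20.5, 43.8 and 52.3 CPM, against 7.72, 8.78 and 16.4 CPM. Its relative Bnip3l had 115, 312 and 360 CPM, against 93.7, 96.7 and 84.7 CPM, so its step fell between 12 and 24 h. Ddit4, an inhibitor of mTORC1, had 28.4, 54.1 and 145 CPM, against 21.0, 24.8 and 24.6 CPM. In untreated libraries Ddit4 also peaked at 48 h, at 83.7 CPM, whereas Bnip3 reached 20.3 CPM.

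Sterol synthesis genes had a peak at 24 h, with 12 h below 6 h in 18 of 24 genes, beside 5217 of all 11224 genes tested. Against the mean of 2, 3 and 6 h, the median of the 24 was 0.25, 1.13 and 0.77 at 12, 24 and 48 h. Of the genes, 15 lay over 2-fold above the middle mean at 24 h, beside 273 of all 11224. At 24 h 23 were higher than at 12 h, beside 5881 of all genes. In the 8-group fit 8 of the 24 passed as higher and 0 as lower, beside 12.2% and 10.2% of all genes. Insig1, which holds the sterol sensor in the endoplasmic reticulum, had 56.8, 249 and 200 CPM at 12, 24 and 48 h, against 132, 104 and 141 CPM at 2, 3 and 6 h. Hmgcs1, a synthase early in the pathway, had 294, 801 and 508 CPM, against 231, 306 and 533 CPM. Late and middle values of both genes overlapped, and neither passed in either fit. In both, 12 h was lower than 6 h and 24 h the highest in untreated libraries too, with 58.4, 261 and 166 CPM for Insig1. Cyp51, a sterol demethylase, differed from them: it had 657, 1320 and 911 CPM late against 323, 395 and 626 CPM in the stimulated libraries, with 12 h not below 6 h, while untreated libraries had 408, 833 and 479 CPM late and 347, 396 and 563 CPM in the middle.

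ATF4 target genes, which the amino acid and stress response switches on, had a low median at 12 h and a higher one at 48 h. The median of 28 genes was -0.45, -0.14 and 0.36, with -0.53, -0.33 and 0.735 in untreated libraries. All 28 were higher at 48 h than at 24 h, beside 5257 of all 11224 genes. At 48 h only 5 lay over 2-fold above the middle mean and 2 over 2-fold below. In the 8-group fit 1 passed as higher and 2 as lower, beside 12.2% and 10.2% of all genes. Trib3, a pseudokinase, had 3.94, 9.86 and 69.0 CPM at 12, 24 and 48 h, against 43.1, 23.4 and 8.33 CPM at 2, 3 and 6 h. Chac1, which degrades glutathione, had 3.05, 12.3 and 61.7 CPM, against 5.80, 14.7 and 5.28 CPM. Ddit3, which encodes the stress factor CHOP, had 5.49, 9.35 and 41.6 CPM, against 10.3, 13.6 and 6.82 CPM. The 48 h level stood above the other 5 libraries in each of these 3 genes, and the untreated 48 h library was higher still, at 100, 95.1 and 48.5 CPM. Trib3 and Chac1 had been higher still at 0 h in the stimulated arm, at 154 and 117 CPM. Atf5 stayed low at 48 h in the stimulated library, at 53.3 CPM, and had 95.6 CPM in the untreated one. Pycr1, of proline synthesis, had 30.8, 15.8 and 36.1 CPM late, against 86.7, 80.0 and 56.9 CPM.

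The windows around the starts of 4 of these genes are printed because their lists moved together at single times (RefSeq, GRCm38.p6, 250 bases before to 50 after the start, shown 5′ to 3′ along the gene's strand). For Trib3 (chr2:152344011-152344310, minus strand), Chac1 (chr2:119350992-119351291, plus strand) and Pycr1 (chr11:120643699-120643998, minus strand), capitals mark TGATGNAA, letters known from ATF4 elements, searched on both strands. For Hmgcs1 (chr13:119690101-119690400, plus strand), capitals mark TCACNCCAC, letters known from sterol regulatory elements.
Trib3: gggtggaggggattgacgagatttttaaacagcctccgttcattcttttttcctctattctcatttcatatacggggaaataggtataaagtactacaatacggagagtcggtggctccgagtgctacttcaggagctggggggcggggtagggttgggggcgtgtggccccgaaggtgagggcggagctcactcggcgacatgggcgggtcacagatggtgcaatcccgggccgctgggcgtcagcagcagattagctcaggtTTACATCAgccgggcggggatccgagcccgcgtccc
Chac1: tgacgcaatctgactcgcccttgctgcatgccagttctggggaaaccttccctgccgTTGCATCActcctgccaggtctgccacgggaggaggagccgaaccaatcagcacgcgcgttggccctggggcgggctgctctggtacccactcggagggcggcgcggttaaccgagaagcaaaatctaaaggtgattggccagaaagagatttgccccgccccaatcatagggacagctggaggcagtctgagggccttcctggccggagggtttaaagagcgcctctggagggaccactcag
Pycr1: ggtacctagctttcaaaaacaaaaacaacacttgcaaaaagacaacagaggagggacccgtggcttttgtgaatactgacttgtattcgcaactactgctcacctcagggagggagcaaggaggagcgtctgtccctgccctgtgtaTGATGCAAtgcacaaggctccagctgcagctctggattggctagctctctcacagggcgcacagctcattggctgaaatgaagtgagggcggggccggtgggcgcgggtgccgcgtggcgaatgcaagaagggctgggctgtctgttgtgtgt
Hmgcs1: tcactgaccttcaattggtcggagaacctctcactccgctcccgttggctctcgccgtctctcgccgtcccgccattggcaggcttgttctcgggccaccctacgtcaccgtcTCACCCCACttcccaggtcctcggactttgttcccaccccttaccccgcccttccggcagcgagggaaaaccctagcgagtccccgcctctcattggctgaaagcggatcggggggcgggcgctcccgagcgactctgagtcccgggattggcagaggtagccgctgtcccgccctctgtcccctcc
The match in Trib3 and in Chac1 lay on the opposite strand. TGATGNAA stood in 3.97% of all 32851 windows and in those of 8 of the 22 ATF4 and amino acid genes with a window, against 230 of the 8275 tested genes that have a window (2.78%). TCACNCCAC stood in 1.24% of all windows, in 1 of 17 sterol genes with a window and in 121 of the 8275 tested genes (1.46%). A match describes the letters and does not show a bound site.

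**Figure D3:**
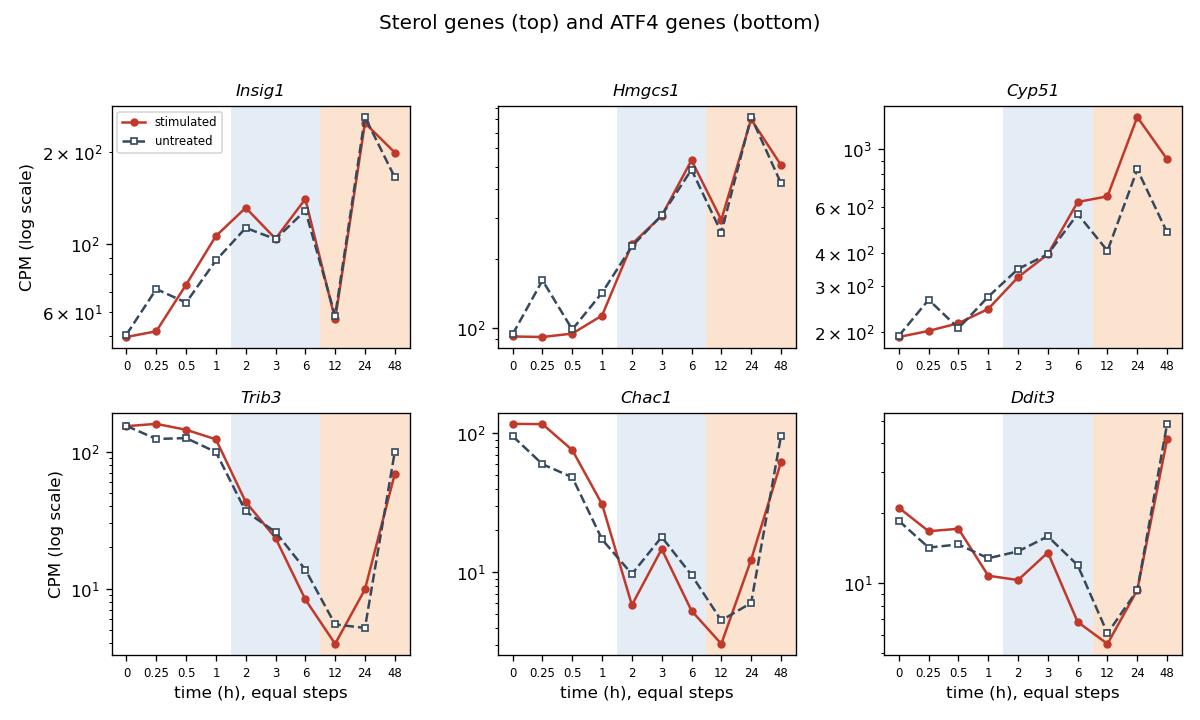
CPM (log axis) over the 10 times (h, drawn at equal steps) of Insig1, Hmgcs1 and Cyp51 (top) and of Trib3, Chac1 and Ddit3 (bottom), stimulated filled and untreated open, 1 library per point. In both arms the 3 sterol genes peak at 24 h, and Insig1 and Hmgcs1 are lower at 12 h than at 6 h, as for Insig1 with 56.8 CPM at 12 h and 141 CPM at 6 h in stimulated libraries, and from 2 h on the ATF4 genes are highest at 48 h, as for Trib3 with 69.0 CPM stimulated and 100 CPM untreated.

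Among proliferation genes, those of mitosis lay higher late. All 3 late libraries lay above the middle in 23 of 49 mitosis and spindle genes and below in 1, beside 15.3% and 13% of all genes, and 22 passed as higher in the 8-group fit, beside 12.2%. The median was 0.77, 0.66 and 0.55, with untreated medians of 0.64, 0.70 and 0.62. Hmmr, a spindle protein, had 323, 330 and 335 CPM, against 85.9, 71.5 and 211 CPM, and Ncapd2, a condensin subunit, 329, 341 and 283 CPM, against 150, 137 and 189 CPM. The largest fold step of Hmmr lay between 3 and 6 h. The 6-library test called none of the 49. Without 6 h, 41 of the 49 passed as higher in the edgeR test of the 5 remaining libraries, where 1225 of all genes did. Without 2, 3, 24 or 48 h no gene of any kind passed. S phase genes did not share this, with medians of 0.19, 0.19 and -0.17.

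Respiratory chain genes lay slightly higher late, with medians of 0.26, 0.41 and 0.19 and 23 of 46 higher in the 8-group fit, beside 12.2% of all genes. Cytosolic ribosomal protein genes lay slightly lower, with medians of -0.11, -0.10 and -0.23 and 18 of 52 lower in that fit, beside 10.2%, for example Rps6, with 997, 944 and 890 CPM, against 1153, 1193 and 1141 CPM. The direction of both medians held under the other scalings tried. Both lists went the same way in untreated libraries. Their untreated medians were 0.19, 0.42 and 0.24 for the respiratory chain and -0.095, -0.079 and -0.147 for ribosomal proteins. Ribosome biogenesis genes were near the middle at 12 and 24 h (0.13 and 0.08) and lower at 48 h (-0.36). Untreated libraries had 0.15, 0.27 and -0.20 for that list. The chaperone Hspa5 had 1981, 1876 and 1833 CPM, against 2884, 3403 and 2760 CPM, and passed as lower in the 8-group fit (adjusted p = 0.00309).

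**Figure D4:**
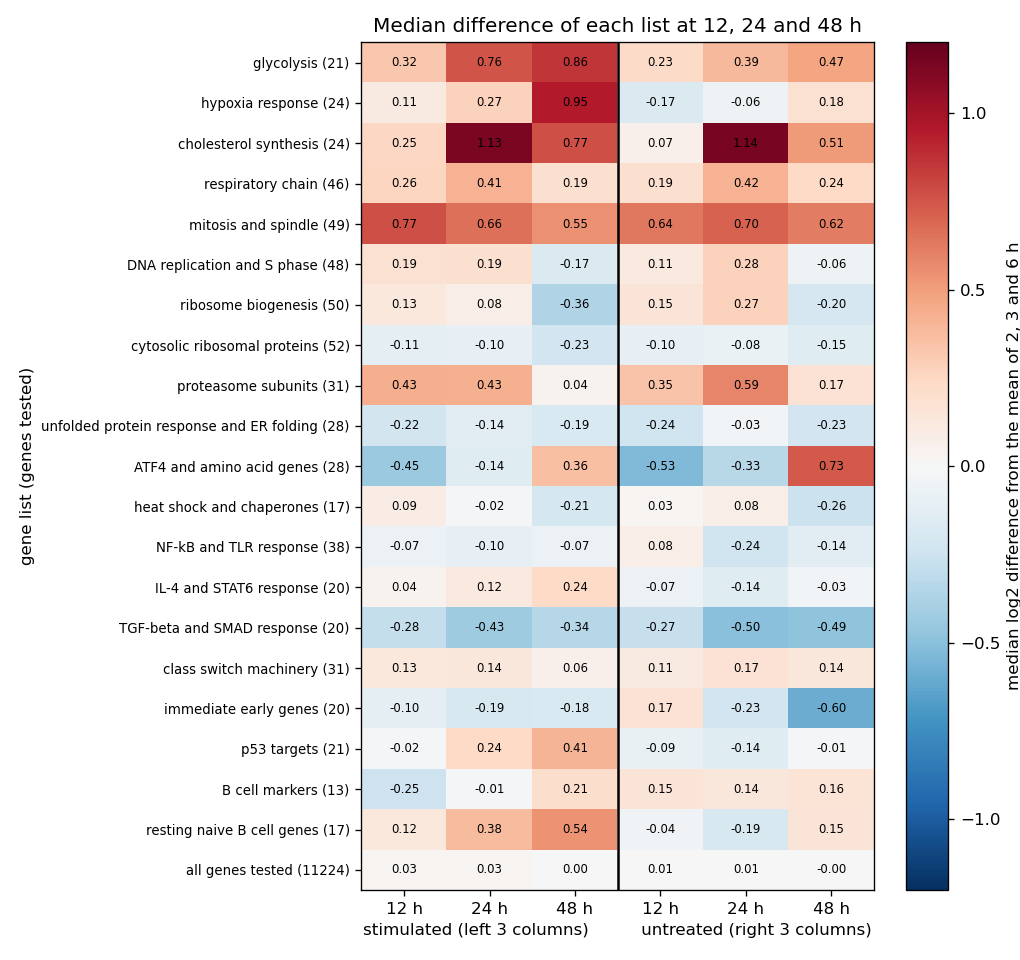
Median over each gene list of the log2(CPM + 0.5) difference from the mean of 2, 3 and 6 h, at 12, 24 and 48 h, in stimulated (left) and untreated libraries (right), with the number of genes tested in brackets; red is higher late, blue lower. Hypoxia genes reached 0.95 in stimulated and 0.18 in untreated libraries at 48 h, whereas sterol genes peaked at 24 h in both, at 1.13 and 1.14.

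Of the lists for the 3 agents, the IL-4 list had 6 of 20 genes higher and 2 lower in the 8-group fit, beside 12.2% and 10.2% of all genes, with medians of 0.04, 0.12 and 0.24. Besides Fcer2a, Tfrc, the transferrin receptor, had 1934, 2154 and 1601 CPM, against 731, 946 and 1356 CPM, and Ciita, the master regulator of MHC class II genes, had 417, 569 and 604 CPM, against 254, 291 and 426 CPM. Cish, a feedback inhibitor of cytokine receptors, went the other way, with 8.62, 6.32 and 4.33 CPM, against 23.2, 25.8 and 12.4 CPM. The chemokine gene Ccl22 was among the most abundant, with 7473, 8642 and 6898 CPM, against 4928, 6120 and 7172 CPM, but its late and middle values overlapped.

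The TGF-beta list had no gene higher and 4 of 20 lower in the 8-group fit, beside 12.2% and 10.2% of all genes. Its medians were -0.28, -0.43 and -0.34, and as low in untreated libraries, at -0.27, -0.50 and -0.49. Tgfbr1, its type I receptor, had 284, 315 and 185 CPM, against 499, 641 and 291 CPM, and Ski, a repressor of SMAD signalling, 59.8, 66.6 and 51.6 CPM, against 146, 133 and 52.9 CPM. In both the 6 h value lay within the late range.

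The NF-kB and Toll-like receptor list had 3 of 38 genes higher and 6 lower in the 8-group fit, a share near that of all genes (12.2% and 10.2%). Nfkb2, a subunit gene of the noncanonical pathway, had 240, 247 and 253 CPM, against 125, 146 and 194 CPM, while Nfkb1, its counterpart in the canonical pathway, had 414, 454 and 384 CPM, against 670, 730 and 523 CPM. The costimulatory ligand gene Cd86 had 155, 145 and 134 CPM, against 265, 337 and 306 CPM (8-group log2 change -1.07 ± 0.11, adjusted p = 9.28e-05). Icosl, another costimulatory ligand, had 32.0, 45.2 and 79.9 CPM, against 5.54, 5.60 and 22.1 CPM. Cd86 was thus lower by 12 h and changed little after it, whereas Icosl was higher at each later time.

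Class switch genes had 4 of 31 higher and 5 lower in that fit, also near the 12.2% and 10.2% of all genes. Ung, a glycosylase that removes uracil from DNA, had 71.9, 72.1 and 60.9 CPM, against 128, 156 and 100 CPM, and passed as lower in the 8-group fit (adjusted p = 0.00322). Rad50, part of a break-sensing complex, had 145, 122 and 214 CPM, against 66.3, 48.5 and 118 CPM.

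Genes of B cell identity went both ways, with 3 of 13 markers higher and 5 lower in the 8-group fit, beside 12.2% and 10.2% of all genes. Cd22, an inhibitory co-receptor, had 38.0, 31.0 and 82.2 CPM, against 367, 247 and 90.9 CPM. Ebf1, a transcription factor of B cell commitment, had 78.4, 81.1 and 66.0 CPM, against 183, 214 and 111 CPM. By contrast Ly6d, a surface protein of early and mature B cells, had 397, 536 and 523 CPM, against 262, 272 and 337 CPM. Of plasma cell markers, Prdm1, the main regulator of secretion, was low throughout, with 5.15, 3.57 and 5.85 CPM, against 16.6, 13.1 and 6.99 CPM, while the surface marker Slamf7 had 14.9, 28.9 and 64.3 CPM, against 11.0, 9.63 and 11.7 CPM, and the joining chain gene Igj 355, 550 and 712 CPM, against 383, 391 and 334 CPM. Slamf7 and Igj were highest at 48 h of the 6 libraries, whereas Prdm1 was lowest at 24 h. As a list, the plasma cell markers showed little change, with medians of -0.08, 0.05 and -0.03 at 12, 24 and 48 h. In the 8-group fit 2 of the 8 tested were higher and 1 lower, beside 12.2% and 10.2% of all genes.

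Markers of macrophages and monocytes moved in opposite directions. The list summed to 244 to 309 CPM late and 286 to 795 CPM in the middle, and 5 of its 12 genes were at or under the floor in all 6 libraries. Csf1r, the receptor for a macrophage growth factor, had 33.4, 36.1 and 42.7 CPM, against 27.2, 20.1 and 20.6 CPM. Mpeg1, a pore-forming protein also found in B cells, had 146, 179 and 148 CPM, against 569, 487 and 204 CPM, and Hmox1, a haem-degrading enzyme, 20.7, 22.2 and 37.1 CPM, against 191, 165 and 29.3 CPM. The part of other cells in the 48 h level of Emr1 was not tested.

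The change from the middle to the late stretch was then compared between the arms, with time as a block (edgeR, 12 libraries, 11723 genes). In 146 genes (1.25%) the stimulated change was higher than the untreated one and in 117 (0.998%) lower. Of the 117, 113 were also in the 6-library set. For 84 of the 146 and 55 of those 113 the 2 arms moved in opposite directions on average. Selection for a differing change favours such opposite directions. These calls rest on single times: without 2, 3 or 24 h, or without the time block, no gene passed, and 2158 genes had an unadjusted p under 0.05. The arms were never in the same lane at a time, so lane and treatment cannot be told apart in this comparison. Of the 4 genes first described, the change of Gstt3 was higher in the stimulated arm (difference 1.17 ± 0.16, SE, log2, adjusted p = 0.0262), and those of Batf3 (-1.22 ± 0.16, adjusted p = 0.0262) and Map1a (-1.08 ± 0.14, adjusted p = 0.0261) were lower. That of Atf5 did not pass (-0.41 ± 0.25, adjusted p = 0.43).

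Among the 8 genes with the largest positive difference, Scml4, a Polycomb-related gene, had 35.2, 76.4 and 97.6 CPM late against 3.65, 1.33 and 8.99 CPM in the stimulated arm, and 6.05, 5.57 and 4.05 CPM late against 3.34, 2.37 and 6.47 CPM in the untreated arm (difference 3.58 ± 0.51, adjusted p = 0.0262). Il9r, a cytokine receptor gene, had 88.6, 205 and 286 CPM late against 31.1, 29.9 and 67.3 CPM in the stimulated arm, and 14.0, 9.75 and 43.4 CPM late against 27.4, 23.8 and 22.0 CPM in the untreated arm. Gpr15, a lymphocyte homing receptor gene, had 59.8, 68.6 and 65.0 CPM late against 14.8, 24.8 and 54.4 CPM when stimulated, and 2.99, 3.49 and 3.63 CPM late against 7.60, 10.1 and 7.60 CPM when untreated. The other 5 were Cdcp1, Neurl3, Hrc, Adamtsl2 and Gnaz, with differences from 2.56 to 4.20. Cdcp1, the largest, was under 1 CPM in all 10 untreated libraries, with 0.151, 0.0231 and 0.169 CPM late, the 24 h value being under the floor of 3 counts, so the size of its fitted difference depends on the prior count. Its mean log2(CPM + 0.5) difference was 1.71 in the stimulated and -0.75 in the untreated arm. In each of these 8 genes the last stimulated library, at 48 h, stood well above the untreated one. Their selection with these same libraries favours that order. Fas, the death receptor gene of the NF-kB list, was called by the same test and showed the same order. It had 40.4, 49.9 and 102 CPM late against 18.6, 13.9 and 51.2 CPM when stimulated, and 4.33, 2.82 and 8.04 CPM late against 12.8, 9.43 and 10.1 CPM when untreated.

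On the other side, Pik3cg, a phosphoinositide kinase catalytic subunit, had 38.6, 29.9 and 15.2 CPM late against 119, 100 and 51.1 CPM in the stimulated arm, and 144, 150 and 148 CPM late against 110, 93.3 and 87.7 CPM in the untreated arm (difference -2.31 ± 0.35, adjusted p = 0.0265). Pde2a, a cyclic nucleotide phosphodiesterase, had 6.16, 3.40 and 1.86 CPM late against 5.58, 7.82 and 7.22 CPM when stimulated, and 35.7, 44.1 and 20.6 CPM late against 9.05, 11.1 and 15.2 CPM when untreated. Its difference thus came mostly from the untreated arm. The remaining 6 of the 8 most negative were Pstpip2, Met, Gpr124, Cd22, Mcoln3 and Hepacam2, with differences from -2.14 to -1.63. Of the 13 B cell markers tested, 3 had a lower stimulated change, Cd22, Vpreb3 and Cd79b, beside 0.998% of all genes.

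Of the gene lists, the hypoxia response stood out in number: 8 of 24 genes had a higher stimulated change and none a lower one, beside 1.25% of all genes. They were Bnip3, Bnip3l, P4ha1, Kdm3a, Ddit4, Pdk1, Narf and Fam162a, with differences from 0.68 for Pdk1 to 1.32 for Bnip3. No mitosis, respiratory chain, ribosomal protein, IL-4, TGF-beta or class switch gene passed in either direction, which does not show that the arms changed alike. The sterol list had 1, Cyp51 (0.74 ± 0.10), and the glycolysis list 1, Slc16a3. Other lists also had calls, beside 1.25% higher and 0.998% lower of all genes. The resting naive B cell list had 3 higher and 2 lower of 17, and the NF-kB list 3 and 2 of 38. Germinal center genes had 2 higher and 1 lower of 9, and B cell markers 3 lower of 13.

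**Figure D5:**
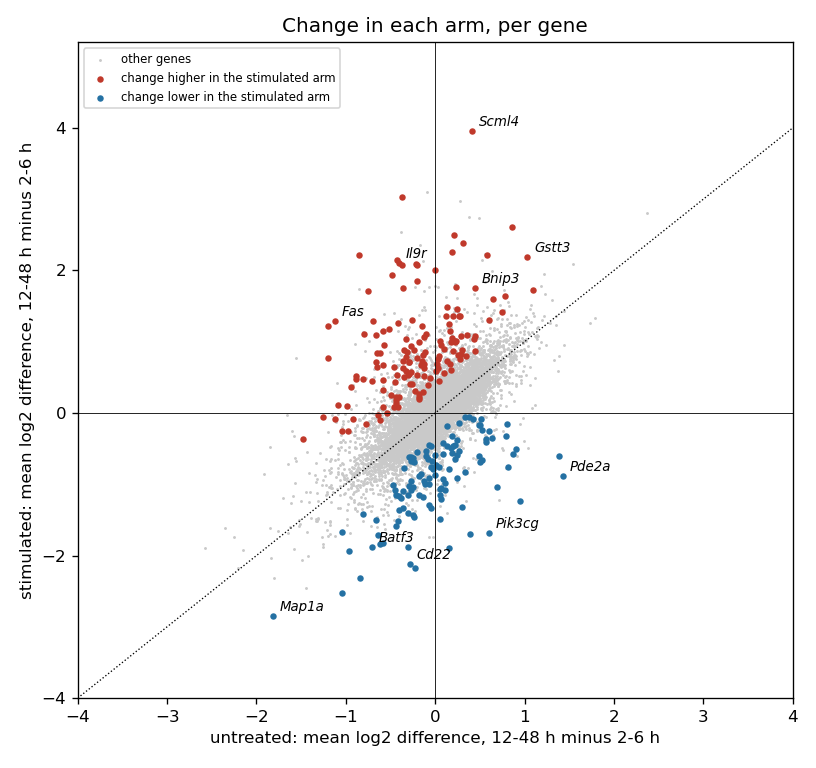
Mean log2(CPM + 0.5) difference of 12, 24 and 48 h minus 2, 3 and 6 h per gene, in stimulated (vertical axis) and untreated libraries (horizontal axis); red and blue points are genes whose stimulated change was higher (146) or lower (113 of the 117, the rest being outside the 6-library set), grey points other genes, and the dotted line marks equal change. Scml4 and Fas lie above the line and Pik3cg and Pde2a below it.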

How the data were processed

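Poly-A TruSeq libraries of samples labelled spleen were used, 10 stimulated and 10 untreated, with the 6 stimulated libraries at 12, 24 and 48 h and at 2, 3 and 6 h compared. The deposited values are raw read counts for 41115 genes, for which the submitters' processing notes name STAR, HTSeq and the builds GRCm38.p3 and mm10. Their versions, settings and strand setting were not given in the sources used. The lane of each library came from its label.

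A gene was tested where 3 or more libraries of a fit had 1 CPM or more, with edgeR 4.0.16 in R 4.3.3 (TMM scaling, quasi-likelihood F-test, Benjamini-Hochberg adjustment, threshold 0.05). The SE is the log2 change divided by the square root of F. Printed CPM are TMM-scaled over the 20 libraries. The difference between arms was the interaction of arm and stretch with time as a factor, which pairs the libraries of 1 time; the numbers pair times and no animals. The 8-group fit split the 20 libraries by arm and stretch (0 h, first hour, 2 to 6 h, 12 to 48 h). limma 3.58.1 (voom), DESeq2 1.42.0, other scalings, filters, lane terms and libraries left out were alternatives. Scripts were tested on simulated data.

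Genes were named as the 12 largest changes each way among those past the threshold with no overlap, which left 4, and as the 4 furthest above and below at each late time, at a mean of at least 5 CPM and without unnamed gene models. Examples from lists, and the 8 largest interaction differences each way, were picked after their values were seen. The comparison and the gene lists were chosen with earlier results of these data known. Lists were described by counts and medians, with no test of the list. Promoter windows came from RefSeq (GRCm38.p6). Floors of detection cover counting error only. Some items are not reported here.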

Additional observations from a re-analysis of the deposited data

Results flagged for a closer look

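In 45 of 107 genes looked at one by one, the change from 2-6 h to 12-48 h differed between the stimulated and the untreated arm past the threshold (edgeR interaction, adjusted p at most 0.05). Over all genes the share was 1.25% higher and 0.998% lower, and 16 of the 45 were picked for having the largest such differences. Further genes, such as P4ha1, Narf, Vpreb3 and Cd79b, were named because this same test called them. The remaining genes looked at were also chosen from values of these libraries. The count of 45 in 107 therefore cannot be set against the share of all genes. Values are the stimulated minus the untreated log2 change. All 45 lost the call without 2, 3 or 24 h or without the time block, and arm, animal and lane cannot be told apart.

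The stimulated change was higher for Cdcp1 (4.20), Neurl3 (3.87), Scml4 (3.58), Hrc (3.52), Adamtsl2 (3.04), Gnaz (2.56), Gpr15 (2.55), Il9r (2.50), Fas (2.50) and Tcf7 (2.44). It was also higher for Icosl (2.05), Slc16a3 (1.81), Dhx58 (1.58), Bnip3 (1.32), Gstt3 (1.17), Ddit4 (1.10), Bnip3l (1.08) and Csf1r (1.02). Smaller differences in that direction were found for Rn18s-rs5 (0.96), Narf (0.95), P4ha1 (0.84), Nfkb2 (0.81), Kdm3a (0.76), Cyp51 (0.74), Fam162a (0.68), Pdk1 (0.68) and Cdkn1b (0.64).

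The stimulated change was lower for Pde2a (-2.45), Pik3cg (-2.31), Hepacam2 (-2.14), Mcoln3 (-1.88), Cd22 (-1.85), Gpr124 (-1.68), Met (-1.65), Pstpip2 (-1.63) and Slfn2 (-1.27). The same held for Mpeg1 (-1.23), Batf3 (-1.22), Vpreb3 (-1.16), Cd86 (-1.13), Cd24a (-1.10), Map1a (-1.08), Prdm1 (-0.89), Efnb1 (-0.84) and Cd79b (-0.39).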

How the results depend on the processing

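The count of late against middle calls moved with many choices of libraries, method and filter, and the cause was not tested. Genes higher numbered 1 and genes lower 3 as reported, 673 and 670 with DESeq2, 541 and 543 with no filter on low counts, 1400 and 1227 with 8 groups over 20 libraries, 816 and 746 for 24 and 48 h against 2 and 3 h, and 0 and 0 with lane as an additive term or within lane 4. With library totals only, 5 were lower. Leaving out 1 time gave 0 to 1225 higher and 0 to 1190 lower. RLE factors, limma-voom and at least 5 CPM kept both counts within 1.5 times. The difference between arms, 146 higher and 117 lower, became 0 and 0 with no replicate block (time not paired) and 382 and 283 with DESeq2. It was 97 higher at 5 CPM and 72 lower with library totals only, and leaving out 1 time gave 0 to 464 higher and 0 to 284 lower. Of the genes with all late libraries above the middle (1716) or below (1457), leaving out 1 time gave 1841 to 3286 and 1562 to 3040, and the 3 other scalings, chosen after the data were seen, stayed within 1.5 times. The counts over 2-fold at 12, 24 and 48 h also stayed within 1.5 times with a prior of 2 CPM, RLE factors or library totals. No named gene that passed the threshold as reported changed direction under any alternative run. With 1 library per time and arm, no error of a single time can be given.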

Other observations

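Of 23 genes of the list of G1 cyclins, CDKs and inhibitors, 5 were higher late and 1 lower in the 8-group fit, beside 12.2% and 10.2% of all genes, and the medians were -0.01, 0.20 and 0.06 at 12, 24 and 48 h. Cdkn1b, which encodes the inhibitor p27, had 59.7, 49.0 and 75.1 CPM at 12, 24 and 48 h, against 22.9, 21.9 and 44.4 CPM at 2, 3 and 6 h, and Ccnd2, a G1 cyclin, 118, 169 and 181 CPM, against 97.6, 87.0 and 89.4 CPM. Both passed in the 8-group fit of edgeR (adjusted p = 0.0147 and 0.038). Bcl2, a survival gene, had 57.8, 90.5 and 133 CPM, against 57.0, 47.8 and 42.1 CPM, and was also highest at 48 h in the untreated arm, at 110 CPM.

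Of 17 genes of the resting naive B cell list, 4 were higher late and 1 lower in that fit, beside the same shares of all genes, with medians of 0.12, 0.38 and 0.54. Tcf7, one of the 4 and a transcription factor better known from T cells, had 74.3, 87.1 and 82.7 CPM, against 11.4, 15.7 and 50.1 CPM, while untreated libraries had 8.93, 5.57 and 7.57 CPM late and 9.26, 9.63 and 12.3 CPM in the middle. Cd24a, a surface glycoprotein gene and the one lower, had 477, 515 and 333 CPM, against 734, 769 and 515 CPM in the stimulated arm, and 1634, 1989 and 1083 CPM late against 1056, 1090 and 1103 CPM in the untreated arm. The late stimulated and untreated levels of Cd24a thus lay on different sides of their middle levels at 12 and 24 h.

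Dhx58, a sensor of viral RNA, had 13.3, 22.2 and 25.2 CPM, against 6.46, 3.43 and 7.06 CPM, whereas untreated libraries stayed between 5.34 and 8.34 CPM. Ccl3, a chemokine, peaked at 24 h in both arms, with 13.6, 20.9 and 9.41 CPM late against 3.01, 2.26 and 3.51 CPM when stimulated, and 13.5, 18.1 and 4.22 CPM late against 2.61, 2.57 and 4.72 CPM when untreated. Flt3, a cytokine receptor gene known from dendritic cells and progenitors, had 8.13, 15.4 and 32.8 CPM, against 7.54, 6.84 and 8.82 CPM.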
